A study of Homo sapiens with 8 samples.

Results

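The 32 genes described here are neuroendocrine and neuronal lineage plasticity genes, read from a gene expression table of prostate cancer cells. They were taken by symbol alone, with no filter on expression, and all 32 were found among the 26443 rows of the table that hold values. By role they are 8 secretory granule and peptide hormone genes, 5 synaptic vesicle and exocytosis genes, 6 neural adhesion, channel and cytoskeleton genes, 2 neuronal enzyme genes, 5 neural transcription factor genes, 2 neural splicing factor genes, the Notch ligand gene DLL3 with the imprinted gene PEG10, and 2 repressor genes. The cells were C4-2B, an established LNCaP derivative that grows without androgen, so every group comes from 1 cell line. All groups were harvested after 7 days: DMSO as the vehicle control, ENZ at 10 uM, EPZ6438 (EPZ) at 1 uM, and both agents together (Combination), whose separate doses the labels do not give. Enzalutamide, usually shortened to ENZ, blocks the androgen receptor. EPZ6438, or tazemetostat, blocks the catalytic activity of EZH2. Each group has 2 libraries, and the labels do not say whether they are separate cultures. The p-values therefore measure only the spread between these libraries, which may be technical.

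Neuroendocrine cells store peptide hormones in dense-core granules, which they release through the exocytosis machinery that neurons also use. Prostate adenocarcinoma under androgen receptor blockade can acquire these features while its luminal programme fades, and the repressor REST keeps many of the genes silent in epithelial cells. EZH2 is the histone methyltransferase that places the repressive H3K27me3 mark at developmental genes, among them neural ones.

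The promoter letters of a few of these genes show what they share and where they differ. Sequences come from RefSeq on GRCh38.p14, whose table holds 23 of the 32 genes, each with 250 bases before and 50 bases after a start site. The palindrome TGACGTCA, the cAMP response element, was searched on both strands and lay in 1.85% of all 35116 windows and in windows of 3 of the genes, all of them granule genes. VGF is at chr7:101165626-101165663 on the minus strand, CHGA at chr14:92923081-92923118 on the plus strand and PCSK1 at chr5:96433303-96433340 on the minus strand, and capitals mark the element.
VGF: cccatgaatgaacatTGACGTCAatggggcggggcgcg
CHGA: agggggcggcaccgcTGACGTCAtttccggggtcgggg
PCSK1: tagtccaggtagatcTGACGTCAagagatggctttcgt
The element starts 79 bases before the start site in VGF, 54 in CHGA and 77 in PCSK1. These 3 windows are shown because the genes share the element and yet stood far apart in level: VGF reached 7.77 FPKM while CHGA stayed at or under 0.114 FPKM and PCSK1 at or under 0.0233 FPKM. FPKM counts fragments per kilobase of a gene and adjusts for the size of the library.

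A REST recognition site (RE1) was searched as its left element TTCAGCACC and its right element GGACAGC on both strands. The elements could lie anywhere in a window, and no rule was set on their spacing or relative orientation. The left element lay in 0.376% of all windows and the right element in 6.03%, and 0.0683% held both. SCG3 was the only one of the 23 genes with both, at chr15:51681511-51681534 on the plus strand, from base +9 to base +32 after the start site, with 8 bases between the elements. Capitals mark them.
SCG3: TTCAGCACCcacagggcGGACAGC
A match of letters is a description and not a bound site.

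SYT4 rose with ENZ and more with EPZ, NCAM2 rose with ENZ, and NTS rose with both agents together, as described below. They are shown as examples of these patterns. Their 150 bases before the start site are printed with CpG dinucleotides, the targets of DNA methylation, in capitals. SYT4 is at chr18:43277491-43277640 on the minus strand, NCAM2 at chr21:21147012-21147161 on the plus strand and NTS at chr12:85874145-85874294 on the plus strand.
SYT4: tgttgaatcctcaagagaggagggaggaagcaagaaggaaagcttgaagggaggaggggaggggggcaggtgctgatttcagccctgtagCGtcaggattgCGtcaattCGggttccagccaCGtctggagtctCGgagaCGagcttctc
NCAM2: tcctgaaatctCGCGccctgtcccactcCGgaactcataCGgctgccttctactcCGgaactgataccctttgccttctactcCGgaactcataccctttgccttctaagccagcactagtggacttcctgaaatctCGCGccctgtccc
NTS: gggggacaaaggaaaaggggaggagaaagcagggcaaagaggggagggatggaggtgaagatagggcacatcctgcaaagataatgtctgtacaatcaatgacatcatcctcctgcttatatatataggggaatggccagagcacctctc
The stretches hold 6 CpG in SYT4, 8 in NCAM2 and 0 in NTS. Over the full 300 bases of a window the median of all promoters was 14 CpG, against 11 for SYT4, 16 for NCAM2 and 2 for NTS. The NCAM2 start used by RefSeq lies inside the span that GENCODE release 29 gives the gene, chr21:20998315-21543329. The SYT4 stretch also lies inside the GENCODE span of its gene, chr18:43267878-43277650. For these genes the bases before the start site are therefore before the RefSeq start only.

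Depth was estimated from the steps of the low values and ran from 15400000 to 24400000 fragments per library. In a gene 1 kilobase long, 1 fragment was then worth 0.041 to 0.0648 FPKM. The luminal identity of the line was visible in all groups: 13 of 13 luminal markers in the table had a mean of at least 1 FPKM, against 0 of 9 basal markers. The summed luminal markers were 1967 to 2014 FPKM in DMSO, 1098 to 1103 in ENZ, 4662 to 4721 in EPZ and 1203 to 1240 in Combination, with KLK3 holding 20.2% to 60.1% of the sum. Single luminal markers went both ways: 5 rose and 6 fell with ENZ, 9 rose and 3 fell with EPZ, and 5 rose and 7 fell with Combination. Among markers of other cell types, the fibroblast list summed to 2.54 to 2.66 FPKM in DMSO and 11.3 to 11.8 in Combination with COL1A2 and DES at 0, and the leukocyte list to 7.37 to 7.58 and 12.1 to 12.5 with CD3E at 0. COL1A1 alone made up 82.1% to 92.8% of the fibroblast sum, CD68 91.2% to 97.9% of the leukocyte sum and MBP 94.7% to 99.1% of the glia sum. The endothelial list stayed at 0.628 to 1.02 FPKM in all libraries with KDR at 0, and the glia list summed to 11.0 to 11.3 FPKM in DMSO and 6.78 to 6.79 in Combination. The part of these lists in the results below was not tested. In bulk RNA fewer cells of a type and less RNA per cell cannot be told apart.

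Of the 32 genes, 30 were above 0 in at least 1 library and 18 were above 0 in all 8. NEUROD1, a neurogenic transcription factor, and STMN2, a neuronal microtubule regulator, were listed at 0 in every library. A mean of at least 1 FPKM over the 8 libraries, which is the filter of the fit across genes, was reached by 13 genes, in falling order of mean SYT4, NCAM2, RCOR1, TUBB3, REST, VGF, ENO2, DLL3, TENM2, ONECUT2, NSG1, PEG10 and UNC13C. Of these, UNC13C, NSG1 and TENM2 passed the filter only through their Combination libraries and PEG10 only through its EPZ libraries, so these 4 had to differ between groups. The other 19 genes had lower means, from 0.636 FPKM for SYP down to 0. The classical markers of neuroendocrine disease, CHGA, CHGB, SYP, NCAM1, SNAP25 and INSM1, were all among the 19.

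Differences were tested with limma on log2(FPKM + 1) over the 11874 genes that passed the filter, with Benjamini-Hochberg adjustment over all of them and a threshold of 0.05. A change on this scale understates the change of a low gene. ENZ moved 9 of the 13 genes, 7 up and 2 down, where 56.7% of all tested genes passed, 27.9% up and 28.8% down. EPZ moved 8, 4 up and 4 down, where 55.8% passed, 23.4% up and 32.4% down. Combination moved 10, 8 up and 2 down, where 80.8% passed, 33.3% up and 47.4% down. The median change of the 13 was 0.33 in ENZ, 0.049 in EPZ and 0.72 in Combination, beside 0.0049, -0.046 and -0.15 over all tested genes. These counts describe the 13 genes and support nothing about the set, because the filter admitted 4 of them by their differences and because shares of calls are high everywhere. The EPZ count fell without either DMSO library and without either EPZ library. It was 4 up and 2 down with median-of-ratios scaling and 3 up and 3 down with quantile normalization. Fewer of all tested genes passed in those fits too. The 3 comparisons share the DMSO libraries.

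**Figure D1:**
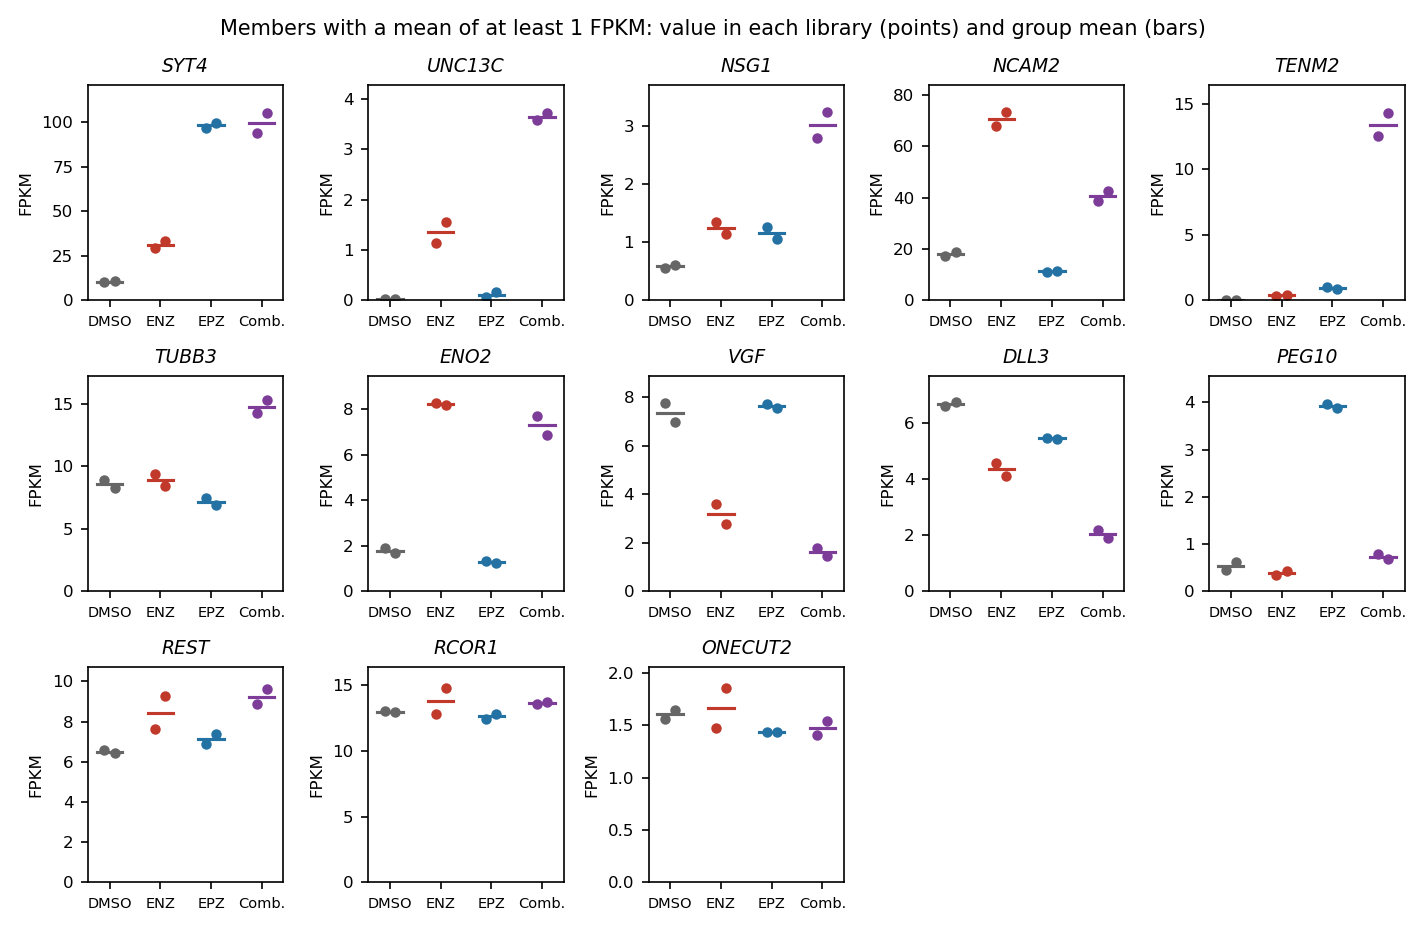
FPKM (linear axes from 0) of the 13 genes whose mean reached 1 FPKM, in the DMSO, ENZ, EPZ and Combination groups; points are the 2 libraries of a group and bars their mean. SYT4 is at 93.9 to 106 FPKM in both groups with EPZ, and NCAM2 and ENO2 are highest in ENZ. TENM2 is at 12.6 and 14.3 FPKM in Combination, and VGF and DLL3 are lowest in Combination.

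Among the granule and peptide genes, VGF, which encodes a granule protein cleaved into neuropeptides, was the only one with a mean of at least 1 FPKM, and it fell with ENZ. VGF (chr7:101162509-101165593, minus strand) was at 7.77 and 6.97 FPKM in DMSO, 3.62 and 2.77 with ENZ, 7.73 and 7.56 with EPZ, and 1.81 and 1.46 with Combination. The ENZ and Combination libraries all lay below the DMSO libraries, and the EPZ libraries lay within their range. VGF fell by 1.00 on the log2 scale with ENZ (SE 0.11, adjusted p = 6.29e-05) and by 1.67 with Combination (SE 0.11, adjusted p = 3.01e-07). EPZ alone gave 0.049 (adjusted p = 0.728, 95% interval -0.20 to 0.29). Combination was below ENZ by a log2 change of -0.67 (adjusted p = 0.000386), so EPZ went with a lower VGF level in the presence of ENZ, and the test of that dependence follows further on.

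NTS, the gene of the gut and brain peptide neurotensin, appeared with the pair of agents. It was listed at 0 in both DMSO libraries, at 0 and 0.037 FPKM in ENZ, at 0.0331 and 0.108 in EPZ, and at 0.921 and 1.43 in Combination. Read as the smallest whole numbers of fragments, these are 0, 0, 0, 1, 1, 3, 22 and 29 fragments. Both Combination libraries lay above all others. In the fit without the filter, over 21026 rows, NTS rose in Combination by 1.11 against DMSO (SE 0.11, adjusted p = 0.000203), by 1.09 against ENZ (adjusted p = 0.000385) and by 1.01 against EPZ (adjusted p = 0.00045). No fold against DMSO is given because its libraries are at 0.

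Other granule genes stayed near the limit of detection. SCG2, secretogranin II, was at 0.101 and 0.0766 FPKM in DMSO, 0.141 and 0.285 with ENZ, 0.175 and 0.122 with EPZ, and 0.403 and 0.428 with Combination. It rose with Combination by 0.38 (SE 0.059, adjusted p = 0.0019), a call that quantile normalization ended (0.099, adjusted p = 0.259), and the fragments behind it numbered 4 and 4 in DMSO and 20 and 18 in Combination. SCG5, a chaperone of prohormone convertase 2, went the other way, at 0.261 and 0.376 FPKM in DMSO, 0.271 and 0.203 with ENZ, 0.132 and 0.18 with EPZ, and 0.0625 and 0.0246 with Combination. Both Combination libraries lay below all others, and SCG5 fell by 0.34 with Combination (SE 0.054, adjusted p = 0.00209). SCG5 fell by 0.19 with EPZ (adjusted p = 0.043), but leaving out any 1 library except the first DMSO library ended that call, with adjusted p from 0.0588 to 0.204.

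SCG3, secretogranin III, which carries the RE1 letters printed above, held no more than 0.111 FPKM in any library and was at 0.094 and 0.111 FPKM in Combination against 0 and 0.0298 in DMSO. Its rise of 0.12 with Combination (adjusted p = 0.0203) rested on 3 and 3 fragments against 0 and 1 in the smallest whole-number reading. By exonic length the estimate was 6 and 6 against 0 and 2. The call was lost without the first DMSO library and without either Combination library. CHGA, chromogranin A, lay between 0.0112 and 0.114 FPKM in all 8 libraries, with the highest and the second lowest value both in Combination. CHGB, chromogranin B, was above 0 in the first Combination library alone, at 0.0979 FPKM. PCSK1, a prohormone convertase, did not exceed 0.0233 FPKM. None of CHGA, CHGB and PCSK1 passed in any comparison.

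Of the synaptic vesicle and exocytosis genes, SYT4 and NSG1 rose with each agent, SYT4 more with EPZ than with ENZ. SYP rose with EPZ and UNC13C with ENZ. SYT4 (chr18:43267878-43277650, minus strand) encodes an atypical synaptotagmin that regulates vesicle release, and it had the highest mean of the 32 genes. It was at 10.4 and 10.7 FPKM in DMSO, 29.3 and 33.4 with ENZ, 96.9 and 99.96 with EPZ, and 93.9 and 106 with Combination. The groups did not overlap except for EPZ and Combination. SYT4 rose by 1.48 with ENZ (SE 0.077, adjusted p = 5.75e-07), by 3.10 with EPZ (adjusted p = 9.25e-09) and by 3.12 with Combination (adjusted p = 6.23e-10), 2.97-fold, 9.31-fold and 9.43-fold by mean FPKM. Combination against EPZ gave 0.016 (adjusted p = 0.857, 95% interval -0.16 to 0.19), and after quantile normalization 0.52 (adjusted p = 0.000144).

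UNC13C (chr15:53978201-54633414, plus strand) encodes a Munc13 protein that primes synaptic vesicles for fusion. It was at 0.0239 and 0.0303 FPKM in DMSO, 1.14 and 1.56 with ENZ, 0.0705 and 0.16 with EPZ, and 3.57 and 3.71 with Combination. The order DMSO, EPZ, ENZ, Combination held without overlap. UNC13C rose by 1.19 with ENZ (SE 0.11, adjusted p = 2.77e-05) and by 2.18 with Combination (adjusted p = 5.86e-08), and Combination was above ENZ by 0.99 (adjusted p = 3.23e-05). UNC13C passed the filter only through Combination. In the fit without the filter these adjusted p were 0.000572, 9.08e-06 and 0.000385. EPZ alone gave 0.12 (adjusted p = 0.401, 95% interval -0.14 to 0.37).

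NSG1 (chr4:4348140-4419058, plus strand), a neuronal protein of endosomal receptor trafficking, was at 0.555 and 0.615 FPKM in DMSO, 1.35 and 1.14 with ENZ, 1.26 and 1.05 with EPZ, and 2.79 and 3.25 with Combination. The single agents overlapped each other, and both lay between DMSO and Combination. NSG1 rose by 0.50 with ENZ (SE 0.10, adjusted p = 0.00257), by 0.44 with EPZ (adjusted p = 0.00534) and by 1.34 with Combination (adjusted p = 1.01e-06). NSG1 passed the filter only through Combination. In the fit without the filter these adjusted p were 0.0102, 0.0167 and 5.55e-05. Quantile normalization ended both single-agent calls (adjusted p = 0.122 and 0.0928), and the EPZ call was lost without the first EPZ library (0.37, adjusted p = 0.0501). Exons of NSG1 overlap those of STX18 on the other strand, and since no strand setting is given in the sources used here their reads cannot be told apart; STX18 itself was at 8.10 ± 0.993 FPKM in DMSO and 5.33 ± 0.0454 in Combination (SD, n = 2).

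SYP encodes synaptophysin, a membrane protein of synaptic vesicles and a diagnostic marker. It was at 0.293 and 0.304 FPKM in DMSO, 0.469 and 0.283 with ENZ, 1.25 and 1.07 with EPZ, and 0.597 and 0.829 with Combination. ENZ overlapped DMSO, and EPZ stood above every other group. SYP rose by 0.73 with EPZ (SE 0.096, adjusted p = 0.00288) and by 0.40 with Combination (adjusted p = 0.0127). The Combination call was lost without the first DMSO library (adjusted p = 0.0648), without the second (adjusted p = 0.0589), without the second Combination library (adjusted p = 0.0726) and after quantile normalization (adjusted p = 1). SNAP25, a core fusion protein of the synapse, was above 0 in the second ENZ and the first EPZ library alone, at 0.0422 and 0.0189 FPKM.

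The neural adhesion and cytoskeleton genes split by agent: NCAM2 rose with ENZ and fell with EPZ, while TENM2 and TUBB3 were highest with both agents. NCAM2 (chr21:20998315-21543329, plus strand), a neural cell adhesion molecule, was at 17.5 and 18.7 FPKM in DMSO, 68.0 and 73.3 with ENZ, 11.1 and 11.5 with EPZ, and 38.9 and 42.4 with Combination. No 2 groups overlapped. NCAM2 rose by 1.91 with ENZ (SE 0.068, adjusted p = 4.45e-08), fell by 0.63 with EPZ (adjusted p = 5.38e-05) and rose by 1.13 with Combination (adjusted p = 1.64e-07). Combination was below ENZ by a log2 change of -0.78 (adjusted p = 4.55e-06), so EPZ lowered NCAM2 with and without ENZ.

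TENM2 (chr5:167284799-168264157, plus strand) encodes teneurin 2, a synaptic adhesion receptor. It was at 0.0672 and 0.0613 FPKM in DMSO, 0.355 and 0.442 with ENZ, 1.01 and 0.868 with EPZ, and 12.6 and 14.3 with Combination. Both Combination libraries lay far above the rest, and the DMSO values rest on an estimated 11.4 and 13.7 fragments. TENM2 rose by 0.39 with ENZ (SE 0.097, adjusted p = 0.00693), by 0.86 with EPZ (adjusted p = 7.19e-05) and by 3.76 with Combination (adjusted p = 7.26e-10). TENM2 passed the filter only through Combination. In the fit without the filter these adjusted p were 0.0191, 0.00117 and 1.42e-06. Combination was above ENZ by 3.36 (adjusted p = 3.37e-09, and 4.7e-06 without the filter) and above EPZ by 2.89 (adjusted p = 9.07e-09, and 6.32e-06 without the filter). Quantile normalization ended the ENZ call (0.13, adjusted p = 0.283).

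TUBB3 (chr16:89921392-89938761, plus strand) encodes class III beta-tubulin, a neuronal tubulin. It was at 8.89 and 8.28 FPKM in DMSO, 9.39 and 8.42 with ENZ, 7.49 and 6.90 with EPZ, and 14.3 and 15.3 with Combination. ENZ overlapped DMSO, and Combination stood above every other group. TUBB3 rose by 0.72 with Combination (SE 0.077, adjusted p = 1.17e-05), and ENZ alone gave 0.046 (adjusted p = 0.628, 95% interval -0.13 to 0.22). With EPZ it fell by 0.23 (adjusted p = 0.0313), a call lost without either DMSO library (adjusted p = 0.173 and 0.0505), without either EPZ library (adjusted p = 0.051 and 0.184), with quantile normalization (adjusted p = 0.0689), with median-of-ratios scaling (adjusted p = 0.0736) and without the expression filter (adjusted p = 0.0646). TUBB3 shares exons with the gene AC092143.1 on the same strand and sequence with other tubulin genes, so its level is uncertain.

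NCAM1, the adhesion molecule CD56 used to diagnose neuroendocrine tumours, behaved unlike its relative NCAM2 in level. It was at 0.0152 and 0 FPKM in DMSO, 0.0122 and 0.0215 with ENZ, 0.0192 and 0.0158 with EPZ, and 0.134 and 0.0932 with Combination. The Combination libraries, with 22 and 13 fragments in the smallest whole-number reading, lay above the 6 others, which held 0 to 4. By exonic length the Combination libraries held an estimated 32.9 and 19.4. NCAM1 rose with Combination by 0.14 (SE 0.023, adjusted p = 0.00205), and quantile normalization ended the call (0.054, adjusted p = 0.129). SCN3A, a neuronal sodium channel subunit, was at 0.0113 and 0.0663 FPKM in Combination and did not pass (0.054, adjusted p = 0.131).

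ENO2, neuron-specific enolase, followed ENZ. ENO2 (chr12:6913745-6923698, plus strand) was at 1.90 and 1.67 FPKM in DMSO, 8.27 and 8.20 with ENZ, 1.35 and 1.26 with EPZ, and 7.71 and 6.89 with Combination. The groups with ENZ lay above both groups without it. ENO2 rose by 1.73 with ENZ (SE 0.083, adjusted p = 3.44e-07) and by 1.57 with Combination (adjusted p = 6.17e-08), and Combination against ENZ gave -0.16 (adjusted p = 0.116, 95% interval -0.34 to 0.029). It fell by 0.27 with EPZ (adjusted p = 0.0189), which was lost without the first DMSO library (-0.21, adjusted p = 0.127), the first EPZ library (-0.30, adjusted p = 0.0524) or the second EPZ library (-0.24, adjusted p = 0.101). UCHL1, a neuronal ubiquitin hydrolase, held 0 to 0.292 FPKM and passed in no comparison with DMSO. Its exons overlap those of UCHL1-AS1 on the other strand, and reads of the overlap cannot be assigned. UCHL1-AS1 was at 0.344 ± 0.133 FPKM in DMSO and 0.998 ± 0.0485 in Combination (SD, n = 2).

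No neural transcription factor gene passed in any comparison at this depth. ONECUT2 (chr18:57435685-57491297, plus strand), a homeobox factor active in androgen receptor-independent disease, was the only one above 1 FPKM. It was at 1.56 and 1.65 FPKM in DMSO, 1.47 and 1.85 with ENZ, 1.43 and 1.43 with EPZ, and 1.41 and 1.54 with Combination. The changes were 0.028 with ENZ (adjusted p = 0.827, 95% interval -0.19 to 0.25), -0.098 with EPZ (adjusted p = 0.418, interval -0.32 to 0.12) and -0.074 with Combination (adjusted p = 0.501, interval -0.29 to 0.15), and after quantile normalization the last was -0.38 (adjusted p = 0.00549). INSM1, a factor of neuroendocrine differentiation, was above 0 in the first EPZ library alone, at 0.0435 FPKM. SOX2, a pluripotency and neural progenitor factor, was above 0 in the second EPZ library, at 0.0535 FPKM, and in both Combination libraries, at 0.0206 and 0.0243 FPKM. POU3F2, the neural factor BRN2, lay between 0 and 0.0888 FPKM.

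Both neural splicing factors were near 0. SRRM4, which drives neural microexon inclusion and splices REST into a truncated form, was above 0 in 3 libraries and at most 0.0193 FPKM. CELF3, an RNA-binding splicing regulator, lay between 0.00784 and 0.0835 FPKM, and neither gene passed in any comparison.

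DLL3, an inhibitory Notch ligand and a drug target in neuroendocrine tumours, fell with ENZ and fell further with both agents. DLL3 (chr19:39498895-39508481, plus strand) was at 6.61 and 6.74 FPKM in DMSO, 4.57 and 4.12 with ENZ, 5.47 and 5.43 with EPZ, and 2.20 and 1.90 with Combination. No 2 groups overlapped. DLL3 fell by 0.52 with ENZ (SE 0.080, adjusted p = 0.000456) and by 1.33 with Combination (adjusted p = 1.56e-07). It fell by 0.25 with EPZ (adjusted p = 0.023), and leaving out either DMSO library (adjusted p = 0.0745 and 0.0986), either EPZ library (adjusted p = 0.0904 and 0.0954) or the expression filter (adjusted p = 0.0529) ended that call, as did median-of-ratios scaling (adjusted p = 0.0613).

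PEG10, a retrotransposon-derived imprinted gene, rose with EPZ alone, and its level with both agents was below that with EPZ. PEG10 (chr7:94656325-94669695, plus strand) was at 0.46 and 0.632 FPKM in DMSO, 0.337 and 0.436 with ENZ, 3.97 and 3.89 with EPZ, and 0.79 and 0.682 with Combination. The EPZ libraries lay above all others. PEG10 rose by 1.67 with EPZ (SE 0.10, adjusted p = 1.94e-06), 7.19-fold by mean FPKM, whereas Combination gave 0.17 (adjusted p = 0.15, 95% interval -0.059 to 0.40) and ENZ -0.16 (adjusted p = 0.216, interval -0.38 to 0.073). Combination was below EPZ by a log2 change of -1.51 (adjusted p = 6.98e-07) and above ENZ by 0.32 (adjusted p = 0.0163). PEG10 passed the filter only through EPZ. Without the filter the adjusted p was 0.000126 for EPZ, 3.67e-05 for Combination against EPZ and 0.019 for Combination against ENZ. The difference from ENZ was lost without the first ENZ library (adjusted p = 0.0684) and without the first Combination library (adjusted p = 0.0838). SGCE, whose exons overlap PEG10 on the other strand, was at 0.0358 ± 0.0507 FPKM in DMSO, 0.6 ± 0.0792 in EPZ and 0.701 ± 0.0592 in Combination (SD, n = 2), and reads of the overlap cannot be assigned.

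The repressor REST, which silences neuronal genes outside the nervous system, rose modestly with ENZ and with both agents. REST (chr4:56907876-56966678, plus strand) was at 6.57 and 6.45 FPKM in DMSO, 7.63 and 9.26 with ENZ, 6.88 and 7.40 with EPZ, and 8.86 and 9.61 with Combination. The ENZ libraries overlapped those of Combination and lay above DMSO. REST rose by 0.45 with Combination (SE 0.089, adjusted p = 0.00102) and by 0.33 with ENZ (adjusted p = 0.0114), and EPZ gave 0.12 (adjusted p = 0.295, 95% interval -0.085 to 0.32). The ENZ call was lost without the second DMSO library (0.31, adjusted p = 0.0517) and without the second ENZ library (0.20, adjusted p = 0.0587). NOA1 overlaps REST on the other strand and went from 31.1 ± 1.69 FPKM in DMSO to 14.6 ± 0.918 in Combination (SD, n = 2).

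RCOR1, the CoREST scaffold that links REST to histone demethylase, was at 13.0 and 12.9 FPKM in DMSO, 12.8 and 14.8 with ENZ, 12.4 and 12.8 with EPZ, and 13.5 and 13.7 with Combination. It passed in no comparison as deposited, with 0.064 for Combination (adjusted p = 0.438, 95% interval -0.10 to 0.23). Median-of-ratios scaling made it a rise of 0.23 (adjusted p = 0.0138) and quantile normalization one of 0.31 (adjusted p = 0.0028). Without the first ENZ library the ENZ change became a call of 0.18 (adjusted p = 0.0335).

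**Figure D2:**
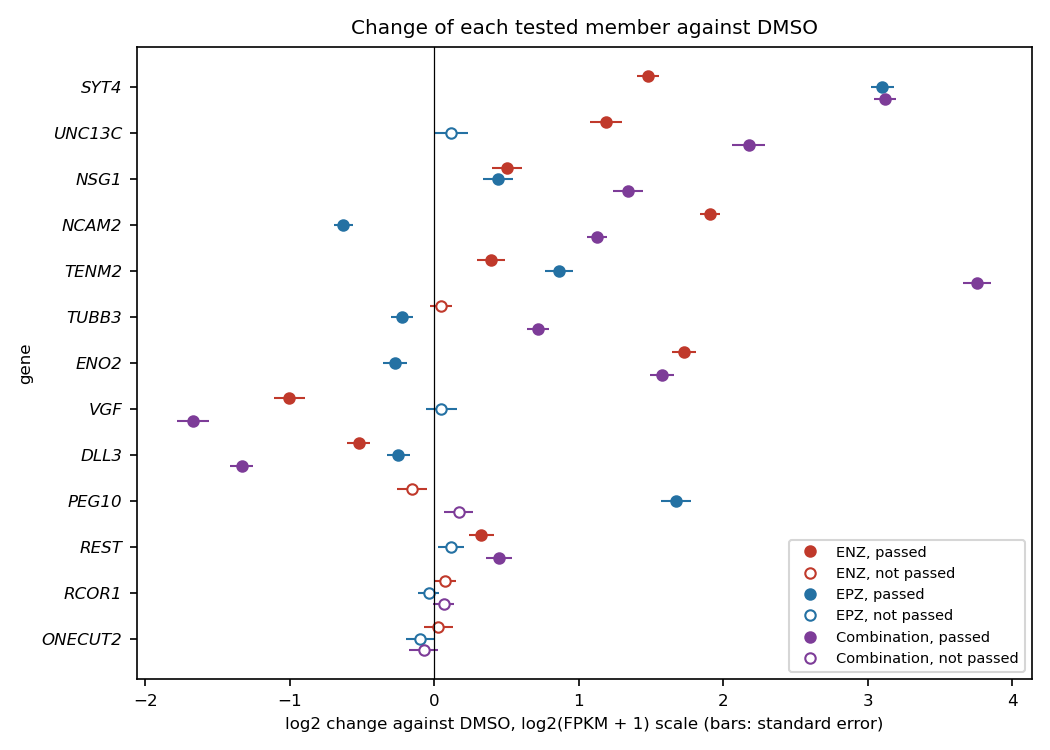
Change against DMSO on the log2(FPKM + 1) scale for the 13 genes, with the standard error as bars; filled points passed an adjusted p of 0.05 and open points did not. ENO2 and NCAM2 move to the right with ENZ and to the left with EPZ, PEG10 stands apart in EPZ alone at 1.67, and TENM2 reaches 3.76 in Combination.

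The 19 genes under the filter were also read in the fit without it, where 17 had a value above 0. The ENZ fit with limma called 0 of the 17, with 1 gene, SCG2, at an unadjusted p under 0.05, where 32.3% of all rows passed, 17.1% up and 15.2% down. That count was 1 without the first ENZ library. EPZ moved 2, SYP up and SCG5 down, where 31.0% of rows passed (14.6% up and 16.4% down), and 1 without the second DMSO library, without either ENZ library or without either Combination library. Combination moved 6, with SCG2, SCG3, NTS, SYP and NCAM1 up and SCG5 down, where 58.9% of rows passed, 31.5% up and 27.4% down. At these levels a call rests on few fragments, and a gene that did not pass was not shown to be unchanged.

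**Figure D3:**
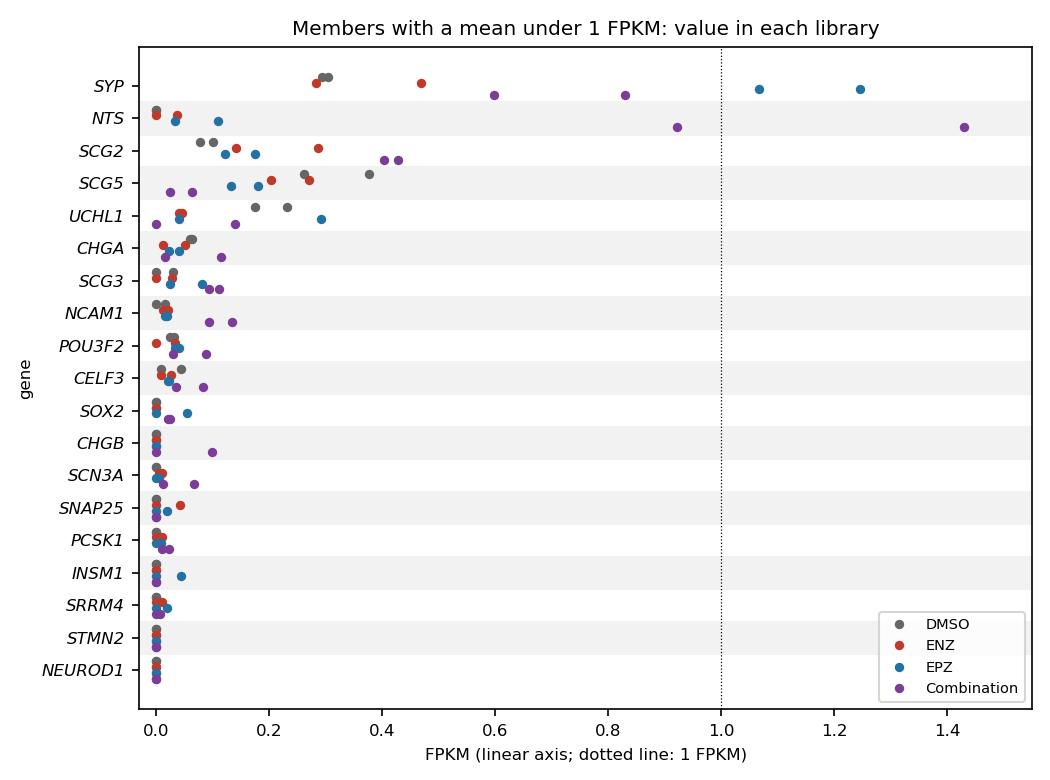
FPKM in each of the 8 libraries (linear axis) for the 19 genes whose mean is under 1 FPKM, coloured by group; the dotted line marks 1 FPKM. SYP is highest in EPZ and NTS in Combination, and NEUROD1 and STMN2 are at 0 throughout.

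Combination was next compared with each single agent. Against ENZ, 9 of the 13 genes passed, 6 up and 3 down, where 70.8% of all tested genes passed, 25.3% up and 45.5% down. The 3 that were lower were NCAM2, VGF and DLL3. Against EPZ, 10 passed, 7 up and 3 down, where 72.8% of all genes passed, 29.2% up and 43.7% down. Those lower than in EPZ were VGF, DLL3 and PEG10. These splits too are descriptions, because UNC13C, NSG1 and TENM2 entered the fit only through Combination and PEG10 only through EPZ. The median change of the 13 was 0.12 against ENZ and 0.33 against EPZ, beside -0.15 and -0.11 over all tested genes. REST was above EPZ by 0.33 (adjusted p = 0.00733), a call lost without the first EPZ library (adjusted p = 0.0552) and without the second Combination library (adjusted p = 0.055). Against ENZ REST gave 0.12 (adjusted p = 0.249), and after median-of-ratios scaling 0.29 (adjusted p = 0.0123), after quantile normalization 0.30 (adjusted p = 0.0115) and without the second ENZ library 0.25 (adjusted p = 0.0228).

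Among the 11874 genes past the filter, the median change of Combination against DMSO was -0.15 as deposited and 0.0024 after median-of-ratios scaling. Over the 21026 rows of the fit without the filter it was 0.022 as deposited. The share of calls that were higher went from 35.7% to 51.2% for Combination against ENZ and to 51.0% after quantile normalization. For the 13 genes the split against ENZ was 6 up and 3 down as deposited and 7 up and 3 down after median-of-ratios scaling. The rises of SYT4, UNC13C, NSG1, NCAM2, TENM2, TUBB3, ENO2 and REST with Combination kept their direction and their call under both scalings, as did the falls of VGF and DLL3.

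Whether the changes with the single agents add up was tested as an interaction (the Combination change less the ENZ change and the EPZ change), in which 0 means that the log2 change of Combination is their sum. Of the 13 genes 7 passed, 3 above and 4 below 0, where 39.6% of all tested genes passed, 9.99% above and 29.6% below. TENM2 and UNC13C, above 0, had entered the fit only through Combination, and PEG10, below 0, only through EPZ, so the count supports nothing about the set. Among all calls the share above 0 was 25.2% as deposited, 49.3% with quantile normalization and 44.3% with median-of-ratios scaling. For the 13 genes the split was 5 above and 4 below with quantile normalization and 4 above and 4 below with median-of-ratios scaling. The median of the 13 was 0.0052 and that of all tested genes -0.12.

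TENM2 exceeded the sum of the single agents by 2.50 (SE 0.14, adjusted p = 2.32e-06, and 0.000278 without the filter). TUBB3 exceeded it by 0.90 (SE 0.11, adjusted p = 0.000201). UNC13C exceeded it by 0.87 (SE 0.16, adjusted p = 0.00227, and 0.00801 without the filter), which a pseudocount of 0.1 reduced to 0.65 (adjusted p = 0.285). By mean FPKM UNC13C was 49.9-fold DMSO with ENZ, 4.25-fold with EPZ and 134.5-fold with Combination. The last is under the product of the single-agent folds, so the sign of this excess depends on the pseudocount. These 3 genes were highest with both agents, and for TUBB3 the change with ENZ alone did not pass and that with EPZ alone was a fall.

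SYT4 fell short of the sum by a log2 difference of -1.47 (SE 0.11, adjusted p = 1.1e-05). Its Combination and EPZ libraries overlapped as deposited and differed after quantile normalization, as given above. PEG10 fell short by -1.35 (SE 0.14, adjusted p = 9.49e-05, and 0.00112 without the filter). VGF lay below the sum by -0.72 (SE 0.16, adjusted p = 0.00543) and DLL3 by -0.56 (SE 0.11, adjusted p = 0.00372), so the fall of these genes with both agents was larger than the single-agent changes added together. For NCAM2 the interaction was -0.15 (adjusted p = 0.233, 95% interval -0.37 to 0.061), and for ENO2 it was 0.12 (adjusted p = 0.468, interval -0.15 to 0.38), which quantile normalization moved to 0.36 (adjusted p = 0.039). NSG1 gave 0.40 (adjusted p = 0.0566, interval 0.066 to 0.72) and REST 0.0052 (adjusted p = 0.978, interval -0.28 to 0.29). Of the genes under the filter, 2 of 17 passed in the fit without it, NTS and NCAM1, both above 0, where 23.3% of all rows passed, 8.27% above and 15.0% below. NTS exceeded the sum by 0.99 (SE 0.15, adjusted p = 0.00713), and SYP gave -0.41 (adjusted p = 0.0801).

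**Figure D4:**
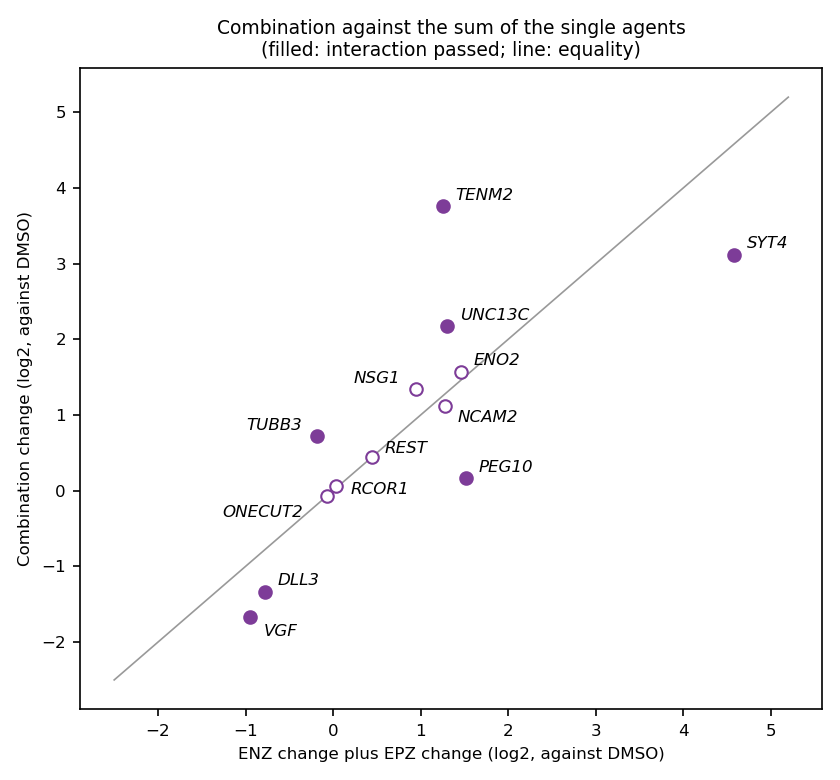
Log2 change of Combination against DMSO (vertical) against the sum of the ENZ and EPZ changes (horizontal) for the 13 genes; the line marks equality and filled points passed the interaction test. TENM2 lies 2.50 above the line, and SYT4 and PEG10 lie 1.47 and 1.35 below it.

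Other genes of the same pathways were counted from lists that do not include the 32. Those tested had a mean of at least 1 FPKM over the 8 libraries, so a gene low in DMSO could enter through a treated group. How many entered in that way was not counted, so the counts and medians describe the tested genes and support nothing about a list. Their counts stand beside the shares of all tested genes that passed: 27.9% up and 28.8% down with ENZ, 23.4% up and 32.4% down with EPZ, and 33.3% up and 47.4% down with Combination. Of 30 neuroendocrine transcription factors 5 were tested, and with Combination 1 rose and 3 fell, with a median of -0.44. HES6, a neurogenic HES-family factor, went from 101 ± 7.18 FPKM in DMSO to 36.4 ± 2.95 in ENZ, 61.6 ± 0.0927 in EPZ and 13.1 ± 1.05 in Combination (SD, n = 2), and fell with each treatment. SOX4, the 1 that rose with Combination, went from 13.44 ± 0.1477 FPKM in DMSO to 10.45 ± 0.6309 in ENZ, 19.69 ± 0.2055 in EPZ and 28.35 ± 1.401 in Combination. Of 32 granule and peptide-processing genes 9 were tested: ENZ raised 4 and lowered 1, EPZ raised 4 and lowered 1, and Combination raised 6 and lowered 1, with a median of 0.48. DDC, the decarboxylase of monoamine synthesis, rose with ENZ (43.1 ± 3.34 to 115 ± 4.61 FPKM) and fell with EPZ (16.4 ± 1.44).

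Of 34 synaptic vesicle and exocytosis genes 14 were tested, and ENZ raised 7 and lowered 3, EPZ raised 8 and lowered 3, and Combination raised 9 and lowered 4, with a median of 0.65. RIMS1, an active-zone scaffold, rose with ENZ by 2.13 and fell with EPZ by 0.36, as NCAM2 and ENO2 did. Of 34 measured cytoskeleton, adhesion and outgrowth genes 14 were tested, and ENZ raised 9 and lowered 2, EPZ raised 8 and lowered 2, and Combination raised 10 and lowered 2, with a median of 0.87. TUBA1A, among those that rose, went from 0.6751 ± 0.08217 FPKM in DMSO to 4.716 ± 0.563 in ENZ, 2.234 ± 0.116 in EPZ and 13.08 ± 0.2475 in Combination. TENM1, the teneurin relative of TENM2, went the other way with ENZ, from 20.5 ± 0.107 FPKM in DMSO to 3.89 ± 0.161, and was at 6.30 ± 0.631 in Combination. Only 2 of 22 channel genes were tested.

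Of 23 genes of the REST corepressor complex and REST turnover 22 were tested, and Combination raised 7 and lowered 11, with a median of -0.15. KDM1A, the histone demethylase partner of RCOR1, fell from 43.3 ± 2.73 FPKM in DMSO to 19.3 ± 0.312 in Combination, and HDAC2, a histone deacetylase, from 26.6 ± 0.332 to 9.38 ± 0.409. Of 20 neural splicing genes 10 were tested, and Combination raised 4 and lowered 6, with a median of -0.34. PTBP1, a repressor of neural exons, fell from 199 ± 3.27 FPKM in DMSO to 72.8 ± 2.20 in Combination, and CELF6, a relative of CELF3, rose from 0.114 ± 0.0333 to 4.34 ± 0.0921. Of 16 Notch genes 10 were tested, and Combination raised 4 and lowered 4, with a median of 0.087. Of 25 further measured plasticity genes 13 were tested, and Combination raised 5 and lowered 7, with a median of -0.44. AURKA, a mitotic kinase that stabilises N-Myc, fell from 37.5 ± 0.974 FPKM in DMSO to 2.63 ± 0.0227 in Combination. All of these medians stand beside -0.15 over all tested genes, and the members were not set against them in a test.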

How the data were processed

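RNA from 8 libraries of C4-2B cells, 2 in each of 4 groups, was sequenced, and the FPKM of each library were deposited by the authors in 1 table. The submitters' processing notes name STAR and hg38 and give no version. The counting tool, its annotation and any use of strand were not given in the sources used here. Sample titles give groups and replicate numbers. Of 26475 rows 26443 held values; 28 symbols turned into dates were kept unnamed in the fit.

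The 32 genes and the lists were chosen with earlier results of these data known, and the named genes are all 32, up to 2 per list and comparison by adjusted p (some omitted for length), and markers as counts and sums. Likeness to other genes, part of that rule, is not reported because the 8 libraries form 4 clusters.

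FPKM hold no totals, so relative depth was read from genes under 0.1 FPKM, of which 82.5% to 88.7% of 801 to 1314 stood in whole ratios within 0.04% to the first DMSO library, and absolute depth from exonic lengths of 261 single-transcript genes (65.5% within 5% of the median). Depths are therefore estimates. Positions and overlaps come from GENCODE release 29, which holds 90.2% of symbols.

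A model of the 4 groups was fitted on log2(FPKM + 1) by limma 3.58.1 (R 4.3.3), using a two-sided moderated test, a variance trend and Benjamini-Hochberg adjustment within each of 6 comparisons (5.47 prior and 4 residual degrees of freedom). The 11874 genes whose mean reached 1 FPKM entered; genes below it were read from the same fit over 21026 rows above 0 in at least 1 library (1.98 prior degrees of freedom). Intervals are 95% and unadjusted. The fit was also run on simulated data with independent noise and changes placed in ENZ alone. That setting differs from these data, so the run says nothing about the calls given here. Alternatives were a pseudocount of 0.1, quantile normalization, median-of-ratios scaling, a filter at a mean of 5 FPKM or none, only the compared groups, the replicate number as a block, and each library left out in turn. Summaries and figures used Python 3.11.15, pandas 2.3.3, numpy 2.4.6 and matplotlib 3.10.9.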

Additional observations from a re-analysis of the deposited data

Results flagged for a closer look

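The effect of EPZ in the presence of ENZ differed from its effect without ENZ for 7 of the 13 genes past the filter, where 39.6% of all tested genes passed, and for 2 of the 17 below it that were fitted, where 23.3% of all rows passed. The test was the interaction in limma with Benjamini-Hochberg adjustment over all genes fitted. UNC13C, TENM2 and PEG10 are among the genes that passed the filter only through their highest group. The UNC13C call was lost with a pseudocount of 0.1 (0.65, adjusted p = 0.285). By mean FPKM its Combination fold was under the product of its single-agent folds, as given above. The difference on the log2 scale was 2.50 for TENM2, 0.90 for TUBB3, 0.87 for UNC13C, -1.47 for SYT4, -1.35 for PEG10, -0.72 for VGF and -0.56 for DLL3. In the fit without an expression filter it was 0.99 for NTS and 0.12 for NCAM1. The NCAM1 value (adjusted p = 0.0495) was lost without any 1 of the DMSO, ENZ and EPZ libraries. It rests on 0 to 4 fragments in those libraries by the smallest whole-number reading.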

How the results depend on the processing

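Of 73 gene comparisons that passed, 49 passed under every alternative run, 24 lost the call under at least 1 and 0 changed direction. With a mean of at least 5 FPKM only 5 of the genes entered the fit: 3 passed for ENZ (61.6% of all 8223 genes passed), 3 for EPZ (62.1%), 4 for Combination (84.3%), 3 for Combination against ENZ (76.4%), 3 for Combination against EPZ (77.5%) and 2 for the interaction (48.2%). Leaving out 1 library at a time gave 8 to 10 genes for ENZ, 4 to 8 for EPZ, 10 for Combination, 8 to 10 for Combination against ENZ, 9 to 10 for Combination against EPZ and 7 to 8 for the interaction. The number called over all genes also changed with the library left out, so these ranges show nothing particular to the genes. A lone library left in a group was assumed to vary like the other groups. Below the filter the same gave 0 to 1 for ENZ, 1 to 2 for EPZ and 4 to 7 for Combination. There ENZ gave 1 with quantile normalization and 1 with only the compared groups, and EPZ gave 1 each with a pseudocount of 0.1, median-of-ratios scaling, only the compared groups and the replicate block.

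The labels do not say whether equal replicate numbers pair the libraries. The deviations of equal-numbered libraries correlated at -0.0153 to 0.109, which cannot show whether they shared a culture or a day. With the replicate number as a block, 9 genes passed for ENZ and 10 for Combination. Of all 11874 tested genes, 3401 were then higher and 3513 lower with ENZ, and 3988 higher and 5669 lower with Combination. Without the block the numbers were 3316 and 3417 with ENZ, and 3957 and 5634 with Combination. Below the filter 3 calls were lost, SCG5 with EPZ (-0.19, adjusted p = 0.0678), SYP for Combination against ENZ (0.32, adjusted p = 0.0578) and the NCAM1 interaction (0.12, adjusted p = 0.0649). The interaction cannot be fitted with only the compared groups.

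Differences that did not pass changed sign as follows. Quantile normalization gave -0.15 for UNC13C with EPZ, 0.11 for the NCAM2 interaction, -0.0028 for TUBB3 with ENZ, -0.20 for ONECUT2 with ENZ, -0.15 for PEG10 with Combination and 0.031 for RCOR1 with EPZ. It also made a call of PEG10 with ENZ (-0.41, adjusted p = 0.0078). Median-of-ratios scaling gave 0.014 for ENO2 in Combination against ENZ, 0.034 for ONECUT2 with Combination and 0.013 for RCOR1 with EPZ. Over the libraries left out, the lowest value was -0.021 for VGF with EPZ and -0.025 for TUBB3 with ENZ. Values ran from -0.068 to 0.10 for SYT4 in Combination against EPZ (-0.0060 without the first EPZ library), from -0.075 to 0.13 for ONECUT2 with ENZ, from -0.0037 to 0.25 for REST in Combination against ENZ and from -0.022 to 0.18 for RCOR1 with ENZ. The cause was not tested. With 2 libraries a group and few fragments below 1 FPKM, small differences were not detectable.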
